A study of Mus musculus with 6 samples.

Results

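The genes described here encode the molecular chaperones of the heat shock families, Hspa, Hspb, Hspd, Hspe, Hsph and Hsp90, and their DnaJ partners, Dnaja, Dnajb and Dnajc. They were taken by symbol from the protein-coding rows of the deposited hippocampal table, with no use of their values, and 61 of 15388 genes met that rule, 23 heat shock protein genes and 38 DnaJ genes. All libraries came from Cx3cr1-cre/ERT2+; NuTRAP+ mice. The study's methods give an age of about 3 months and both sexes for its mice in general, and the labels used here give no sex for these animals. Both fractions carry a tamoxifen-inducible Cre recombinase driven by the Cx3cr1 promoter, which is active in microglia and other cells of the macrophage lineage. After 5 daily tamoxifen injections the NuTRAP allele places a GFP tag on the ribosomes of recombined cells. For this line the study waited some weeks after tamoxifen before taking brains, so that short-lived blood monocytes would not carry the tag. The cleared hippocampal homogenate of each animal gave an Input library, the RNA of all cells, and the ribosomes held by anti-GFP antibody gave a Positive library. There were 3 animals, numbered 201, 207 and 208, hence 3 Input and 3 Positive libraries. In what follows, values per library are always given in the order 201, 207, 208.

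Hsp70 proteins bind exposed hydrophobic stretches of unfolded proteins, and DnaJ proteins, also called J proteins, bring them their clients and start ATP hydrolysis. Nucleotide exchange factors such as the Hsp110 proteins then release the client, which may pass on to Hsp90, to the chaperonins or to degradation. The endoplasmic reticulum (ER), mitochondria and cytosol each hold a set of their own, and transcription of these sets is raised through heat shock elements bound by heat shock factors or, for the ER set, through ER stress elements in the unfolded protein response.

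The promoters show which members carry these elements next to their start sites. The table of RefSeq promoters on build GRCm38.p6 held 50 of the 61 members, and the 250 bases before each start were searched on both strands. The ER stress element, the letters CCAAT, a gap of 9 bases and the letters CCACG, was found in 3 members, which are also the 3 ER chaperone genes with the highest log2 fold changes of their class: Hspa5, Hsp90b1 and Dnajc3. It was present in 6% of the members matched and in 0.127% of the 11018 tested genes matched, and in 0.113% of all promoters in the table. They are shown 5′ to 3′ on the strand of the gene, with both boxes of the element in capitals (where the element lies on the opposite strand its boxes read CGTGG and ATTGG).
Hspa5, chr2:34772020-34772048 (+): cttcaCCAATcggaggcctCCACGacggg
Hsp90b1, far element, chr10:86705598-86705694 (-): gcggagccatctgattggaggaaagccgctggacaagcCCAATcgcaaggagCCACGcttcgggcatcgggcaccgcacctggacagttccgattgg
Hsp90b1, near element, chr10:86705510-86705591 (-): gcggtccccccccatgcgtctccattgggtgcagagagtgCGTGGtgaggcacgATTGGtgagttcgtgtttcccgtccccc
Dnajc3, chr14:118937787-118937885 (+): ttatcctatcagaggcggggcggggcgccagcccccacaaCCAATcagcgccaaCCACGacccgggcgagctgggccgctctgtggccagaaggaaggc
The nearest base of the element stood 46 bases before the Hspa5 start, 193 and 88 before that of Hsp90b1 and 86 before that of Dnajc3. The Hspa5 element lies within an exon of a longer GENCODE transcript, so only a short window of it is printed.

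The core of the heat shock element, GAANNTTC, was found in 11 of the 50 members matched (22%), namely Dnaja1, Dnaja4, Dnajb6, Dnajc27, Hspa1a, Hspa1b, Hspb1, Hspb3, Hspb6, Hspd1 and Hspe1, against 6.05% of the tested genes matched and 6.69% of all promoters. Sequences of only some of these genes are shown. Among those shown, Hspa1a and Hspd1 were called higher in Positive, Dnajc27 was called lower, and Hspa1b, Hspb1 and Hspe1 were not called, as described below. Capitals mark the fixed bases of the core.
Hspa1a, chr17:34972213-34972300 (-): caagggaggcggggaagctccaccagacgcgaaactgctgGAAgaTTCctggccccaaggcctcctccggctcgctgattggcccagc
Hspa1b, chr17:34959295-34959382 (-): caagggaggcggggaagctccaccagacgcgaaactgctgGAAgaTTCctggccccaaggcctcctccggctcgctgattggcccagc
Hspb1, chr5:135887762-135887849 (+): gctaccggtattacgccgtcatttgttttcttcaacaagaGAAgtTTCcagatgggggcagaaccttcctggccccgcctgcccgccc
Hspe1, chr1:55088053-55088082 (+): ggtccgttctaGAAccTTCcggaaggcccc
Hspd1, chr1:55088053-55088082 (-): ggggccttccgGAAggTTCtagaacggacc
Dnajc27, chr12:4082324-4082408 (+): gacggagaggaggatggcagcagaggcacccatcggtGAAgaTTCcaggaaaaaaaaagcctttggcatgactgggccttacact
The stretches of Hspa1a and Hspa1b were identical. Hspd1 and Hspe1 are transcribed away from each other, and the core lay between their RefSeq starts in the same bases read on opposite strands. Hspb1 held a second core, 89 bases before its start, within the stretch shown. A match describes the letters only. Elements in another arrangement or beyond the 250 bases were not searched, so a member without a match may still hold one. Other entries, among them Hspa8, Hsp90aa1, Hsp90ab1 and Hspa9, were not matched in the promoter table.

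In the fit across all genes, 31 of the 61 members differed between Positive and Input, 26 higher and 5 lower in Positive, at a Benjamini-Hochberg adjusted p under 0.05 by the quasi-likelihood test of edgeR. Of the 15343 genes tested, 46% were called, 24% higher and 22% lower, so the members were called about as often as other genes but divided differently between the directions, with 42.6% of them higher and 8.2% lower. This division was not tested, and the counts of members depended on the scaling between libraries. Scaling to the total count in place of the median of ratios gave 17 members higher and 8 lower. The higher share of their calls went from 83.9% to 68%. That scaling shifted all genes. Their median log2 fold change went from -0.01 to -0.09, and that of the members from 0.18 to 0.10. How the calls of all genes divided under it is not given here, so the contrast with other genes was not compared. Since whole hippocampus and the RNA held with anti-GFP antibody were compared in bulk, fewer cells of a type and less RNA per cell cannot be told apart. Positive was not RNA of tagged cells alone. Its summed scaled reads of 10 neuronal markers were 171381 to 208246, against 108807 to 159978 for 10 microglial markers. A value near 0 therefore need not describe microglia, and the part of untagged cells in the member values was not tested.

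The differences were small. The median log2 fold change of Positive over Input was 0.18 over the members and -0.01 over all genes tested (0.10 and -0.09 with total-count scaling), while the median of its absolute value was 0.22 over the members and 0.31 over all genes. In 49 members the fold change lay within 0.5 of 0 on the log2 scale. Only Hspb3 and Hspa12b changed by more than 2-fold, 3.28% of the members against 12.8% of all genes tested. Every Positive library lay above every Input library in 30 of the 61 members and below in 8. Over all 15343 genes tested these counts were 4440 (28.9%) and 4230 (27.6%). In the other 23 the fractions overlapped. The 3 animals shared a direction in 46 of the 61 members and in 10819 of the 15343 genes tested. They did so in all 31 called members, which a call made on these same libraries favours.

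**Figure D1:**
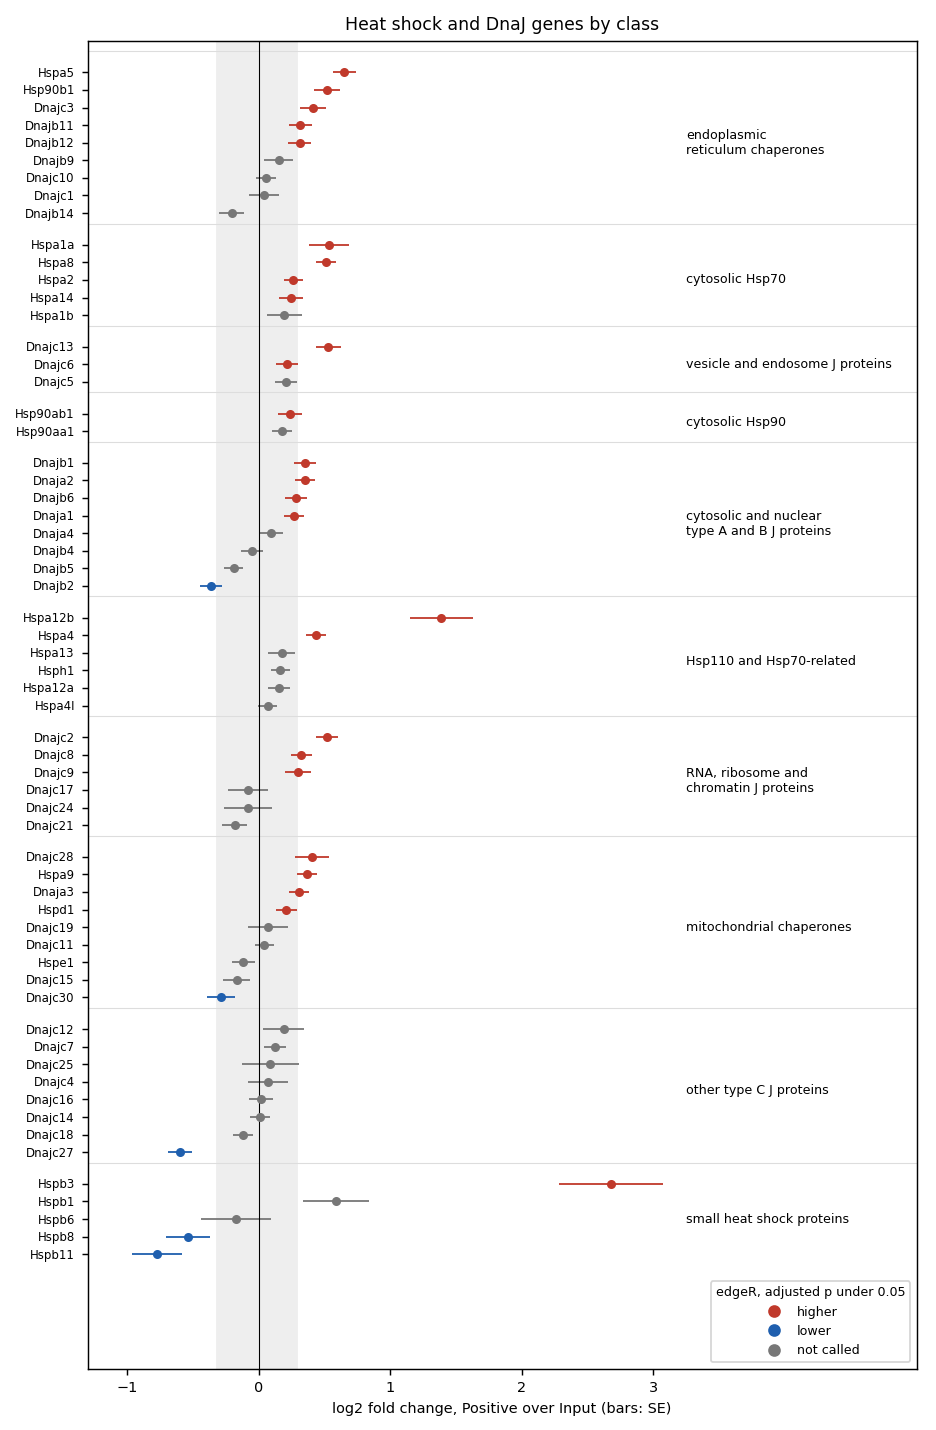
Log2 fold change of Positive over Input for each of the 61 members with its standard error (edgeR, 3 libraries per fraction), grouped by class and coloured by call. The grey band is the interquartile range of all genes tested, from -0.32 to 0.29, and most members lie in it or just above it. Hspb3 at 2.68 and Hspa12b at 1.39 lie far to the right.

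The libraries held 14879734 to 17757918 reads, and values are given as scaled reads, raw reads divided by the size factor of the library. How mates of a read pair were counted is not given in the sources used here, so 1 read may be less than 1 fragment. A log2 fold change is that of Positive over Input, given ± its standard error (SE) from 3 libraries per fraction. Reads carried no molecular identifiers, so the reads of a low count may include copies of the same fragment. Lists of cell type markers were read from the same fit. All 10 microglial markers were higher in Positive (median log2 fold change 4.63, summed scaled reads 5409 to 5920 in Input and 108807 to 159978 in Positive), as were the 10 endothelial markers (median 1.94) and the 8 of border macrophages (median 4.16). All 10 oligodendrocyte and 8 choroid plexus markers were lower (medians -2.13 and -2.00), as were 3 of 7 ependymal and 4 of 10 astrocyte markers, with 1 astrocyte marker higher. Of the 10 neuronal markers 3 were higher and 0 lower, with a median of 0.10. Their summed reads reached 155666 to 177520 in Input and 171381 to 208246 in Positive, more than those of the microglial list in each fraction, and no marker of any list was at 0 in a library. The part of these shifts in the values below was not tested except where stated.

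The ER chaperones had a class median of 0.31, with 5 of 9 members higher in Positive (55.6%) and 0 lower. Over all genes tested 24% were higher and 22% lower. These are the shares to set beside each class and list count here and below, and no count was tested against them. Hspa5, or BiP, the Hsp70 of the ER (chr2:34771970-34777547 on mm10), gave 3158, 3756 and 3505 scaled reads in Input and 5268, 5979.9 and 5129 in Positive. Hsp90b1, or Grp94, the Hsp90 of the ER, gave 4445, 5333 and 5021 scaled reads in Input and 7113, 7848 and 6303 in Positive. Dnajc3, a J protein of the ER lumen that works with BiP, gave 1030.5, 1036 and 1192 scaled reads in Input and 1380.4, 1623 and 1329 in Positive. In all 3 genes each Positive library exceeded each Input library. The log2 fold change was 0.65 ± 0.09, adjusted p = 7.6e-05 for Hspa5, 0.52 ± 0.10, adjusted p = 8.7e-04 for Hsp90b1 and 0.41 ± 0.10, adjusted p = 0.0039 for Dnajc3. The ratio within an animal was lowest in animal 208 for each of them, with log2 values of 0.74, 0.67 and 0.55 for Hspa5, 0.68, 0.56 and 0.33 for Hsp90b1 and 0.42, 0.65 and 0.16 for Dnajc3.

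A further pair of ER members rose less. Dnajb11, or ERdj3, which binds unfolded clients for BiP, gave 1052, 1144 and 997 scaled reads in Input and 1331, 1416 and 1223 in Positive. Dnajb12, a membrane J protein with its J domain in the cytosol, gave 686, 683 and 673 scaled reads in Input and 809, 840.2 and 886 in Positive. Neither overlapped between the fractions, and their log2 fold changes were 0.31 ± 0.09, adjusted p = 0.011 and 0.31 ± 0.08, adjusted p = 0.0090. The call of Dnajb11 was lost when 1 library was left out, with an adjusted p of 0.062 without library Input 208. The members that were not called were Dnajb9, or ERdj4, at 0.15 (adjusted p = 0.28), the reductase Dnajc10 at 0.06 (adjusted p = 0.57) and the translocon-associated Dnajc1 at 0.04 (adjusted p = 0.80). Dnajb14, the close relative of Dnajb12, pointed the other way, with 2617, 2673 and 2739 scaled reads in Input and 1979, 2436 and 2543 in Positive and a log2 fold change of -0.21 (adjusted p = 0.088). Its Positive libraries were all below its Input libraries, and with the animal as a block it was called lower (adjusted p = 0.038).

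**Figure D2:**
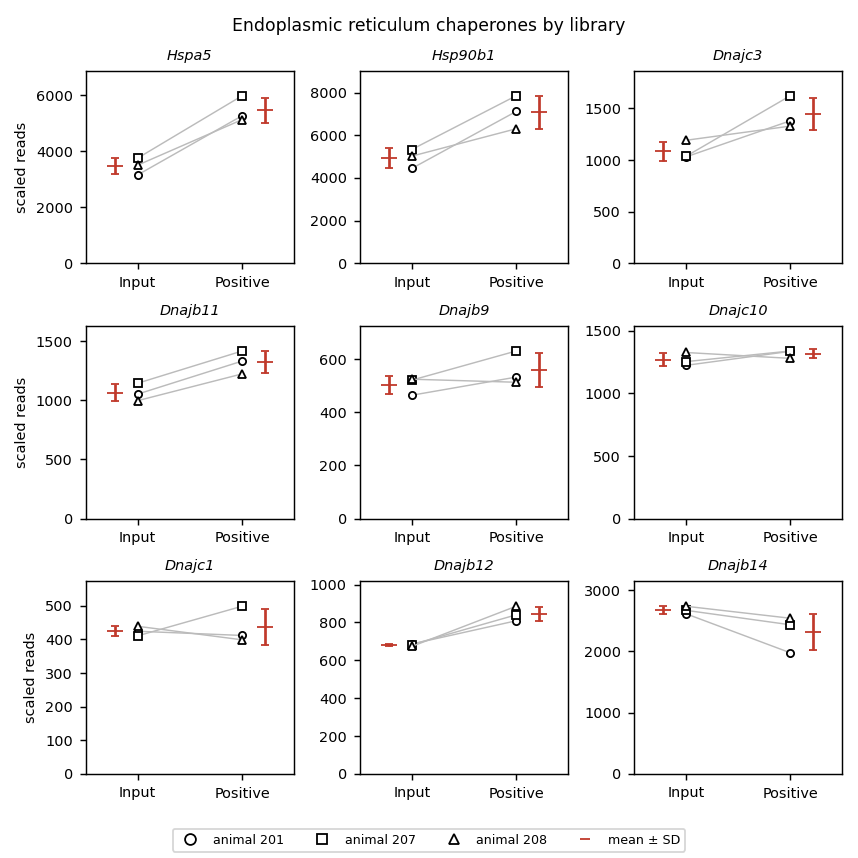
Scaled reads (linear axes from 0) of the 9 ER chaperone genes in the Input and Positive library of each animal, joined by a line, with the mean and SD of each fraction beside them. Hspa5, Hsp90b1, Dnajc3, Dnajb11 and Dnajb12 show no overlap and higher Positive values, and Dnajb14 shows lower ones.

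The other genes of ER folding and the unfolded protein response moved with this class. Of 16, 13 were higher in Positive (81.2%, against 24% of all genes tested) and 0 lower, with a median log2 fold change of 0.51. Sdf2l1, a partner of Dnajb11 in the ER lumen, gave 191, 199 and 161 scaled reads in Input and 432, 534 and 460.1 in Positive and had the largest change, 1.37 ± 0.13, adjusted p = 3.5e-06. The disulfide isomerases Pdia3 and P4hb rose by log2 fold changes of 0.86 ± 0.09, adjusted p = 8.7e-06 and 0.81 ± 0.09, adjusted p = 1.3e-05. Canx, the lectin chaperone calnexin and the gene of the list with the most reads, rose by a log2 fold change of 0.38 ± 0.08, adjusted p = 0.0020. All 3 sensors of the response were called higher, Atf6 at 0.51 (adjusted p = 8.8e-04), Ern1 at 0.51 (adjusted p = 0.024) and Eif2ak3 at 0.36 (adjusted p = 0.010), and so was the factor Xbp1 at 0.51 (adjusted p = 8.8e-04). These 4 and the next 2 were chosen after their values were seen. Atf4 and Ddit3, the transcription factors downstream of Eif2ak3, were not called and had values of -0.29 (adjusted p = 0.063) and -0.24 (adjusted p = 0.20). Of the tested genes with the ER stress element, 14 in all, 7 were called higher (50%, against 24% of all genes tested) and 1 lower. The 7 include the members Hspa5, Hsp90b1 and Dnajc3. Of the ER folding list, Calr, Canx and Pdia6 carried the element and were called higher, and Creld2 carried it and was not called (log2 fold change 0.30, adjusted p = 0.088). Most of the 7 were thus already counted in the ER class or list above, and their count is not a separate observation.

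The cytosolic Hsp70 genes were higher in 4 of 5 cases and lower in 0, with a class median of 0.26. Hspa8, or Hsc70, the constitutive form (chr9:40800984-40810087), gave 5950.3, 5295 and 5638 scaled reads in Input and 8077, 7949 and 8053 in Positive, a log2 fold change of 0.51 ± 0.08, adjusted p = 1.7e-04. Its 3 Positive libraries differed by less than its Input libraries and stood well clear of them. Hspa1a and Hspa1b are the stress-inducible pair, neighbours on chromosome 17. Hspa1a gave 147, 146 and 193 scaled reads in Input and 243, 219.9 and 239.9 in Positive, and Hspa1b gave 341, 407 and 445 scaled reads in Input and 408, 433 and 523 in Positive. The libraries of Hspa1a did not overlap (log2 fold change 0.53 ± 0.15, adjusted p = 0.013), whereas those of Hspa1b did (log2 fold change 0.19 ± 0.13, adjusted p = 0.25). The call of Hspa1a was lost when 1 library was left out, with an adjusted p of 0.061 without library Input 207. The longest reading frames of the pair were identical in 1918 of 1926 aligned bases (99.58%), so reads could be shared between them and the division of reads between both genes is uncertain. Whether they differed from each other was not tested. Beside them, the list of immediate early genes, which respond to handling and activity, had 5 of 10 members higher and 1 lower, with a median of 0.16, and its part in these values was not tested.

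Hspa2, an Hsp70 best known from testis, gave 1321, 1303 and 1355 scaled reads in Input and 1593, 1532 and 1651 in Positive, without overlap (log2 fold change 0.26 ± 0.07, adjusted p = 0.011). Hspa14, a ribosome-associated Hsp70, gave 522, 499 and 531 scaled reads in Input and 607, 634 and 599 in Positive, again without overlap (log2 fold change 0.25 ± 0.09, adjusted p = 0.042). Neither call held in every fit. For Hspa2 the adjusted p was 0.053 with total-count scaling, 0.055 by limma on the deposited log2 values, and 0.052 without library Input 207. The adjusted p of Hspa14 was 0.14 with total-count scaling, 0.065 by DESeq2, 0.059 by limma on the deposited log2 values, and between 0.070 and 0.14 when 1 of the libraries Input 201, Input 207, Input 208, Positive 201 and Positive 207 was left out.

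Among the Hsp110 and Hsp70-related genes, 2 of 6 were higher and 0 lower. Hspa4, an Hsp110 that exchanges the nucleotide of Hsp70, gave 3995, 4315 and 4423 scaled reads in Input and 5638, 5785 and 5803 in Positive, all Positive values above all Input values (log2 fold change 0.44 ± 0.08, adjusted p = 4.6e-04). Its relatives differed less and were not called: Hsph1 had 3816, 4037 and 3834 scaled reads in Input and 4474, 4180.2 and 4445 in Positive (log2 fold change 0.16, adjusted p = 0.085), and Hspa4l had a log2 fold change of 0.07 (adjusted p = 0.47). Of the others, Hspa13, an Hsp70-like protein of microsomes, stood at 0.18 (adjusted p = 0.18) and the neuronally abundant Hspa12a at 0.15 (adjusted p = 0.14).

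Hspa12b, the paralog of Hspa12a known from endothelium (chr2:131127280-131146321), gave 105, 102 and 94.4 scaled reads in Input and 377, 238 and 175 in Positive. Every Positive library exceeded every Input library, and the Positive libraries spread widely among themselves, highest in animal 201 and lowest in animal 208. The log2 fold change was 1.39 ± 0.24, adjusted p = 4.3e-04. By animal, the log2 ratios were 1.83, 1.21 and 0.89, and the median ratios of the 10 endothelial markers were 2.20, 2.23 and 1.17, lowest in the same animal. Animal 208 had the lowest median ratio in 7 of the 10 marker lists, among them microglia and oligodendrocytes, so this order was not particular to endothelial markers. The summed scaled reads of that list ran from 2055 to 2493 in Input and from 5411 to 11098 in Positive, and its part in the Hspa12b value was not tested. Per kilobase of exon, Hspa12b was a scarce transcript at 27.3 scaled reads in Input and 71.5 in Positive, against 496 and 552 for Hspa12a.

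Hsp90ab1, the constitutive cytosolic Hsp90, was the most abundant member per length, with a mean of 8801 scaled reads per kilobase of exon in Input. It alone held 20.8% of all member reads in Input. It gave 24659.7, 27661 and 26861 scaled reads in Input and 30772, 30101 and 32333 in Positive, higher in each Positive library than in any Input library, with a log2 fold change of 0.24 ± 0.09, adjusted p = 0.049. That call was marginal: the adjusted p was 0.17 with total-count scaling, 0.061 with the animal as a block, 0.054 with raw values divided by 2, 0.097 by limma on the deposited log2 values, and between 0.058 and 0.19 when 1 of the libraries Input 201, Input 207, Input 208, Positive 201 and Positive 207 was left out. The inducible Hsp90aa1, next in level at 1939 per kilobase, gave 7541, 7893 and 7432 scaled reads in Input and 8889, 8183 and 8789 in Positive. Its fractions did not overlap either, and its log2 fold change of 0.18 ± 0.08, adjusted p = 0.081 did not pass the test. After the Hsp90 pair came Hspa8 at 1308 and Hsp90b1 at 1223 scaled reads per kilobase in Input, and the lowest levels were those of Dnajc25 at 18.8 and Hspb3 at 7.36. Together the members took 0.787% to 0.836% of the reads of an Input library and 0.889% to 0.919% of those of a Positive library.

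**Figure D3:**
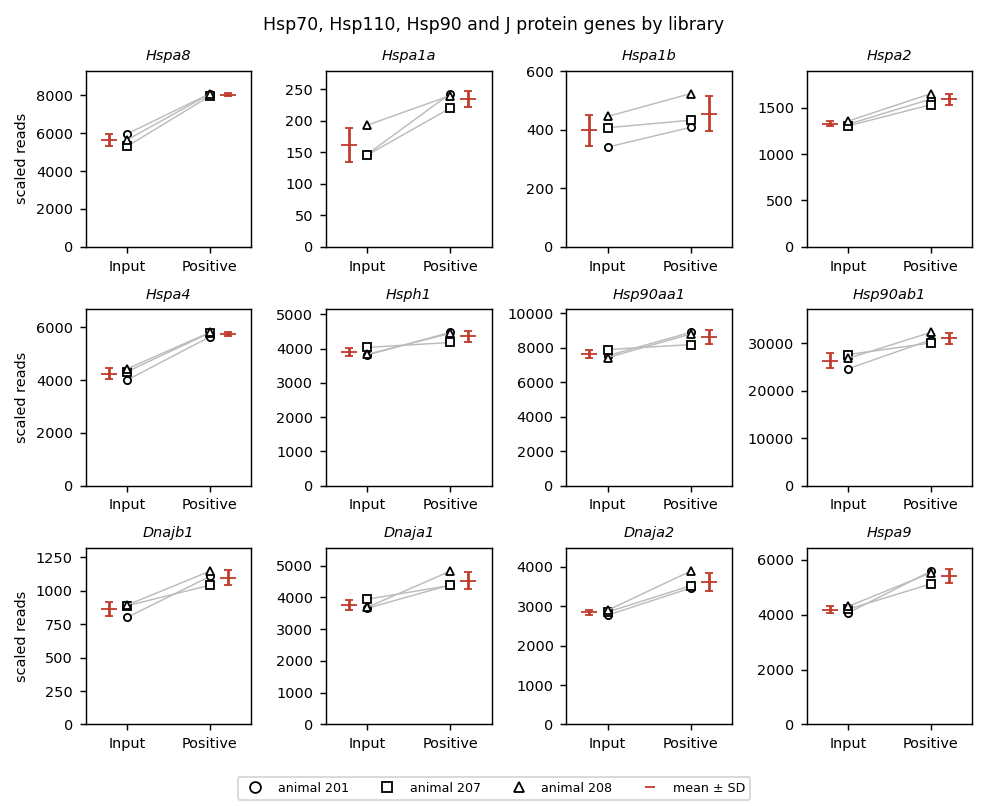
Scaled reads (linear axes from 0) of 12 genes of Hsp70, Hsp110, Hsp90 and J proteins in the Input and Positive library of each animal, joined by a line, with the mean and SD of each fraction beside them. Hspa8 rises from 5950.3, 5295 and 5638 to 8077, 7949 and 8053, while Hspa1b is the one panel in which the fractions overlap.

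Of the partners of Hsp90, 6 of 17 co-chaperones were higher and 1 lower (median 0.10, or 0.019 with total-count scaling). These shares were 35.3% and 5.9%, against 24% and 22% of all genes tested. Fkbp5, an immunophilin of the glucocorticoid receptor complex, rose from 1109.7, 1111 and 1292 to 1640.0, 2041 and 1636 scaled reads (log2 fold change 0.60 ± 0.10, adjusted p = 4.1e-04), and its relative Fkbp4 by 0.43 ± 0.07, adjusted p = 2.9e-04. Cdc37, which brings kinases to Hsp90 and had the most reads of this list, stood at 0.41 (adjusted p = 6.9e-04). Cdc37l1, its paralog, went down from 2039, 1903 and 1792 in Input to 1250.4, 1185 and 1239 in Positive (log2 fold change -0.64 ± 0.08, adjusted p = 2.6e-05). Among the exchange factors and partners of Hsp70, 4 of 13 were higher and 0 lower (median 0.11, or 0.034 with total-count scaling and 0.054 without library Positive 208). The higher share, 30.8%, was near the 24% of all genes tested. Bag3, which links Hsp70 and small heat shock proteins to autophagy, gave 191, 186 and 161 scaled reads in Input and 334, 333 and 244 in Positive (log2 fold change 0.76 ± 0.15, adjusted p = 0.0015). Bag6, the member of that list with the most reads, stood at 0.35 (adjusted p = 0.0029) and Hyou1, the exchange factor of BiP, at 0.33 (adjusted p = 0.0033). The heat shock transcription factors had 0 of 3 called by edgeR: Hsf1 at -0.07 (adjusted p = 0.65), Hsf2 at -0.09 (adjusted p = 0.52) and Hsf4 at -0.01 (adjusted p = 0.94), with overlapping libraries in all 3. None had an unadjusted p under 0.05 (0 of 3), and DESeq2 called 0 as well.

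The chaperonin TRiC folds actin and tubulin, which prefoldin hands to it. Of the 14 genes tested, 7 were higher, all of them TRiC subunits, and 2 lower, both prefoldin subunits. Cct5 and Cct7 had log2 fold changes of 0.39 ± 0.09, adjusted p = 0.0026 and 0.39 ± 0.08, adjusted p = 0.0019, and the TRiC subunit Tcp1 was not called (log2 fold change -0.01, adjusted p = 0.91). Pfdn2 gave 1893, 1825 and 1891 scaled reads in Input and 1485, 1566 and 1592 in Positive (log2 fold change -0.27 ± 0.07, adjusted p = 0.0086), and Pfdn5 stood at -0.23 (adjusted p = 0.019). The Positive libraries of both prefoldin genes lay below all Input libraries. Tcp1, Pfdn2 and Pfdn5 were named after their values were seen.

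**Figure D4:**
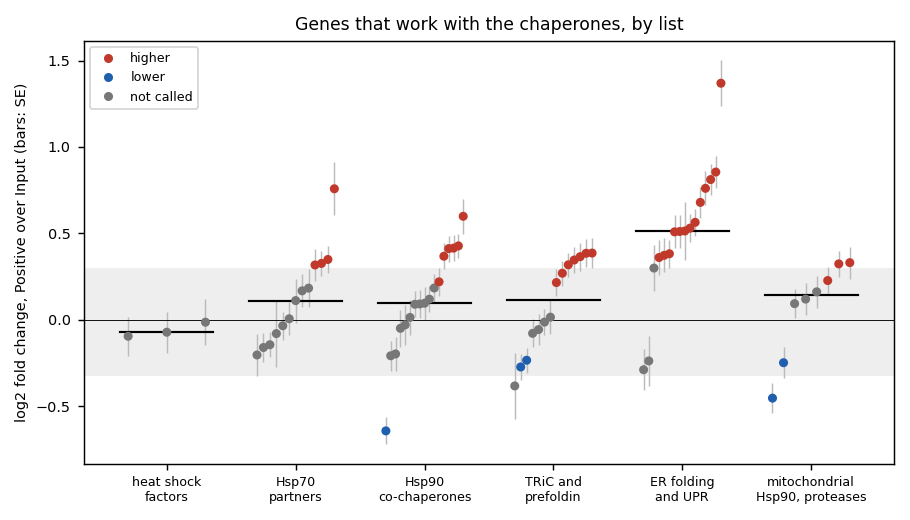
Log2 fold change of Positive over Input with its standard error for each tested gene of the 6 lists of chaperone partners, sorted within a list and coloured by call, with the median of the list as a black line and the interquartile range of all genes as a grey band. The ER folding list stands highest with a median of 0.51, and no heat shock factor leaves the band.

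The type A and B J proteins of cytosol and nucleus had 4 of 8 members higher and 1 lower (median 0.18, or 0.10 with total-count scaling). Dnajb1, the classical Hsp40, gave 799.7, 887 and 892 scaled reads in Input and 1106, 1040.2 and 1146 in Positive (log2 fold change 0.35 ± 0.08, adjusted p = 0.0044). Dnaja2 gave 2777, 2858 and 2902 scaled reads in Input and 3465, 3522 and 3894 in Positive (log2 fold change 0.35 ± 0.08, adjusted p = 0.0024). Both were higher in every Positive library than in any Input library. Dnaja1, the member of the class with the most reads, gave 3658, 3942 and 3687 scaled reads in Input and 4389, 4375 and 4823 in Positive (log2 fold change 0.27 ± 0.08, adjusted p = 0.013), and Dnajb6, which restrains polyglutamine aggregation, gave 1726, 1888 and 1764 scaled reads in Input and 1992, 2166 and 2378 in Positive (log2 fold change 0.28 ± 0.08, adjusted p = 0.016). Their fractions did not overlap, but the calls were not stable. For Dnaja1 the adjusted p was 0.058 with total-count scaling, 0.069 by limma on the deposited log2 values, and 0.068 without library Input 208. For Dnajb6 it was 0.059 with total-count scaling, 0.085 by limma on the deposited log2 values, and 0.058 and 0.065 without libraries Input 201 and Input 208.

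Dnajb2, a J protein abundant in neurons that binds ubiquitin chains, was the one member of this class called lower. It gave 1747, 1643 and 1702 scaled reads in Input and 1449, 1247 and 1269 in Positive, with every Positive library below every Input library (log2 fold change -0.36 ± 0.08, adjusted p = 0.0032). Dnajb5 pointed the same way with 2737, 2743 and 2792 scaled reads in Input and 2352, 2323 and 2575 in Positive, also without overlap. Its log2 fold change of -0.19 ± 0.07, adjusted p = 0.051 missed the threshold, and it passed with the animal as a block (adjusted p = 0.042). Dnaja4 and Dnajb4 stood near 0, at 0.10 (adjusted p = 0.39) and -0.05 (adjusted p = 0.63).

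Of 3 J proteins of vesicles and endosomes, 2 were higher. Dnajc13, or RME-8, which acts on endosomes, gave 895, 872 and 909 scaled reads in Input and 1370.3, 1373 and 1119 in Positive (log2 fold change 0.53 ± 0.09, adjusted p = 5.2e-04). The neuronal auxilin Dnajc6, which strips clathrin from vesicles, gave 4444, 4192 and 4289.9 scaled reads in Input and 4886, 4626 and 5531 in Positive (log2 fold change 0.22 ± 0.08, adjusted p = 0.048). Dnajc5, the cysteine string protein of synaptic vesicles, gave 5689.9, 5872 and 6049 scaled reads in Input and 6309.9, 6721 and 7342 in Positive (log2 fold change 0.21 ± 0.08, adjusted p = 0.052). None of the 3 genes overlapped between fractions. With the animal as a block, Dnajc5 was called higher (adjusted p = 0.040). The call of Dnajc6 was lost in several fits, its adjusted p being 0.18 with total-count scaling, 0.17 by limma on the deposited log2 values, and between 0.065 and 0.16 when 1 of the libraries Input 201, Input 207, Input 208, Positive 201 and Positive 208 was left out.

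The J proteins of RNA, ribosome and chromatin were split between 3 genes that rose and 3 that did not pass. Dnajc2, the partner of Hspa14 at the ribosome, gave 639, 679 and 658 scaled reads in Input and 936, 964 and 935 in Positive (log2 fold change 0.52 ± 0.08, adjusted p = 2.1e-04). Dnajc8, a spliceosome component, gave 1665, 1569 and 1435 scaled reads in Input and 1911, 1984 and 1947 in Positive (log2 fold change 0.32 ± 0.08, adjusted p = 0.0050). Dnajc9, a histone chaperone, gave 464, 465 and 502 scaled reads in Input and 544, 609 and 606 in Positive (log2 fold change 0.30 ± 0.10, adjusted p = 0.024). In these 3 the fractions were fully separated, most widely in Dnajc2. For Dnajc9 the adjusted p was 0.073 with total-count scaling, and between 0.063 and 0.083 when 1 of the libraries Input 201, Input 207 and Positive 207 was left out. The rest of the class, Dnajc17, Dnajc21 and Dnajc24, lay between -0.18 and -0.08 on the log2 scale.

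Mitochondrial chaperones had 4 of 9 members higher and 1 lower, with a median of 0.07 (-0.0056 with total-count scaling, and 0.040 without library Positive 207 to 0.18 without library Input 207). Hspa9, or mortalin, the Hsp70 of the matrix, gave 4063, 4195 and 4298 scaled reads in Input and 5583, 5123 and 5524 in Positive (log2 fold change 0.37 ± 0.08, adjusted p = 0.0015). Dnaja3, its J protein, gave 1086, 1034 and 991 scaled reads in Input and 1263, 1282 and 1297 in Positive (log2 fold change 0.30 ± 0.08, adjusted p = 0.0061). Both genes were higher in every Positive library. The chaperonin pair with facing starts was divided: Hspd1, or Hsp60, gave 2147, 2497 and 2431 scaled reads in Input and 2739, 2757 and 2688 in Positive (log2 fold change 0.21 ± 0.08, adjusted p = 0.044), and its lid Hspe1, or Hsp10, gave 858, 909.9 and 806 scaled reads in Input and 765, 776 and 834 in Positive (log2 fold change -0.12 ± 0.09, adjusted p = 0.29). Hspd1 was higher in every Positive library and Hspe1 overlapped between fractions. Whether the pair differed was not tested, and the Hspd1 call did not hold throughout, with an adjusted p of 0.18 with total-count scaling, 0.13 by limma on the deposited log2 values, and between 0.054 and 0.16 when 1 of the libraries Input 201, Input 207, Input 208, Positive 201 and Positive 207 was left out.

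Less abundant members of this class moved in both directions. Dnajc28 gave 181, 189 and 197 scaled reads in Input and 238, 248 and 265 in Positive (log2 fold change 0.40 ± 0.13, adjusted p = 0.023), and its adjusted p was 0.054 with total-count scaling, and between 0.051 and 0.065 when 1 of the libraries Input 201, Input 207, Input 208 and Positive 207 was left out. Dnajc30, linked to the upkeep of respiratory complex I, gave 489, 457 and 483 scaled reads in Input and 370.2, 373 and 428 in Positive (log2 fold change -0.29 ± 0.11, adjusted p = 0.045). Its Positive libraries were all below its Input libraries, yet the adjusted p was 0.057 by DESeq2, and between 0.074 and 0.13 when 1 of the libraries Input 201, Input 207, Input 208, Positive 201 and Positive 207 was left out. The remaining members, Dnajc19, Dnajc11 and Dnajc15, ran from -0.17 to 0.07 and were not called. Of 8 further genes, the mitochondrial Hsp90 and proteases, 3 were higher (37.5%) and 2 lower (25%), near the 24% and 22% of all genes tested. Among them were the protease subunit Clpp at -0.45 (adjusted p = 0.0011), its ATPase Clpx at 0.33 (adjusted p = 0.011), and Afg3l2 at 0.32 (adjusted p = 0.0041). Lonp1, with the most reads, stood at 0.23 (adjusted p = 0.036).

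The small heat shock proteins, which as a family hold unfolded proteins without ATP, were grouped here by the symbol Hspb. This class was divided, with 1 of 5 members higher and 2 lower, among the lower Hspb11, described below. Hspb3, known mainly from muscle, gave 3.21, 5.64 and 8.39 scaled reads in Input and 29.9, 33.7 and 47.8 in Positive, few reads in Input and several times more in Positive in each animal. Its log2 fold change was 2.68 ± 0.39, adjusted p = 1.2e-04, the largest of all members, and it was also the one member that passed the filter on low counts through Positive alone, so that it had to differ to be tested. Hspb1, or Hsp27, gave 61.2, 88.3 and 81.8 scaled reads in Input and 143, 131 and 74.8 in Positive. Animals 201 and 207 had more reads in Positive and animal 208 had slightly fewer, so the fractions overlapped and the change did not pass (log2 fold change 0.59 ± 0.25, adjusted p = 0.071). Without the Positive library of animal 208, Hspb1 was called higher with a log2 fold change of 0.82 (adjusted p = 0.0041). By animal the log2 ratios of Hspb1 were 1.21, 0.57 and -0.13, beside 0.12, 0.21 and -0.89 for the median mural marker and the endothelial values above. The part of these cells in it was not tested.

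Hspb11 and Hspb8 were lower in Positive. Hspb11, which is also the intraflagellar transport subunit Ift25, gave 113, 126 and 145 scaled reads in Input and 81.3, 80.0 and 63.4 in Positive (log2 fold change -0.77 ± 0.19, adjusted p = 0.0054). Hspb8, the partner of Bag3, gave 277, 296 and 256 scaled reads in Input and 227, 203 and 143 in Positive (log2 fold change -0.53 ± 0.17, adjusted p = 0.019). In both genes all Positive libraries lay below all Input libraries and animal 208 was lowest. The per-animal log2 ratios were -0.47, -0.65 and -1.18 for Hspb11 and -0.29, -0.54 and -0.83 for Hspb8. Over the 7 tested ependymal markers, genes of ciliated cells, the median ratios were -0.40, -0.73 and -1.46, with summed reads of 561 to 840.2 in Input and 236 to 565 in Positive, and their part was not tested. The call of Hspb8 was lost when either of 2 libraries was left out, with an adjusted p of 0.050 and 0.075 without libraries Input 201 and Input 207. Hspb6, with 59.2, 34.8 and 64.8 scaled reads in Input and 45.3, 46.0 and 48.8 in Positive, overlapped fully (log2 fold change -0.17, adjusted p = 0.63).

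**Figure D5:**
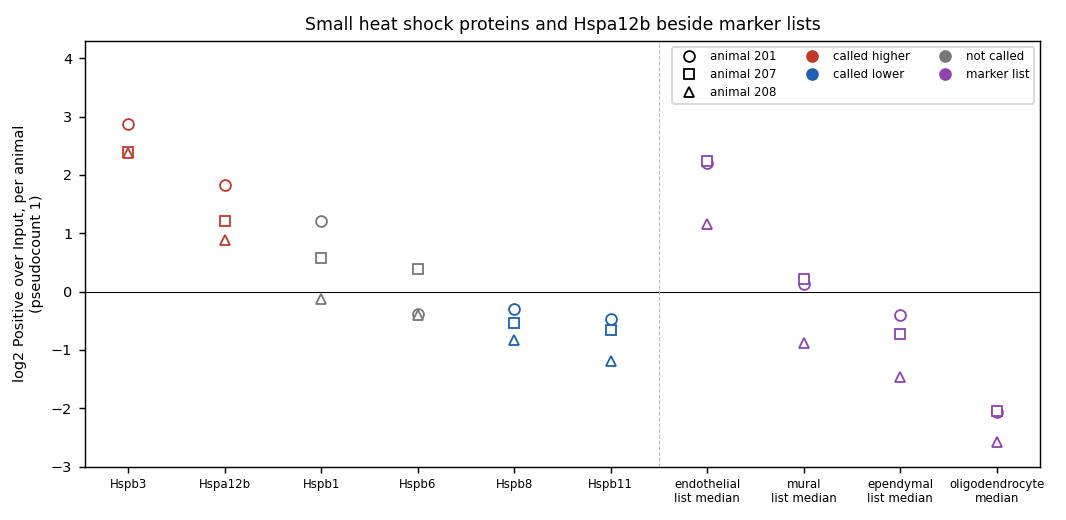
Log2 ratio of Positive over Input within each animal (scaled reads with a pseudocount of 1) for the 5 small heat shock protein genes and Hspa12b, beside the median ratio of 4 marker lists. Symbols stand for animals and colours for the call. Animal 208 lies lowest for all 6 genes, by a narrow margin for Hspb3 and Hspb6, and for each of the 4 lists, as it does in 7 of 10 marker lists and 24 of the 61 members.

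The remaining type C J proteins had 0 of 8 members higher, 1 lower and a median of 0.05 (-0.03 with total-count scaling, and 0.013 to 0.075 when 1 library was left out). That gene was Dnajc27, which joins a Rab-like GTPase to a J domain (chr12:4082583-4110606). It gave 2382, 2400.5 and 2444 scaled reads in Input and 1416, 1546 and 1812 in Positive, with every Positive library far below every Input library (log2 fold change -0.60 ± 0.09, adjusted p = 1.7e-04). Dnajc7, which can bind both Hsp70 and Hsp90 and had the most reads of the class, overlapped between fractions (log2 fold change 0.13, adjusted p = 0.23). The other 6 lay between -0.12 and 0.19.

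Set against their promoters, the members with a heat shock element core were divided much as the members as a whole. Of 11, 5 were called higher, Dnaja1, Dnajb6, Hspa1a, Hspb3 and Hspd1, and 1 lower, Dnajc27, while Dnaja4, Hspa1b, Hspb1, Hspb6 and Hspe1 were not called. Of these, Hspb3 passed the filter on low counts through Positive alone, so its direction was set by the filter. Over all 61 members 42.6% were called higher and 8.2% lower, and of the 667 tested genes with the core 27.3% were higher. The 3 members with the ER stress element were all called higher. Of the 14 tested genes with that element, these 3 included, 7 were (50%). Over all genes tested 24% were called higher. Motif content and fold change were not tested against each other.

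Within a fraction, the SD of log2 scaled reads between animals was taken over the 57 members that averaged 100 scaled reads or more. Its median was 0.0654 in Input and 0.0915 in Positive. Over all 12122 tested genes above the same floor it was 0.101 and 0.129. These sets were not matched by level above that floor, so the part of read level in this difference was not tested. By animal, the median log2 ratio of all 61 members was 0.20, 0.18 and 0.16.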

How the data were processed

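Hippocampal RNA of 3 Cx3cr1-cre/ERT2+; NuTRAP+ animals was analysed as 3 Input and 3 Positive libraries, grouped by the fraction label. Per the methods of the study, poly(A)-selected directional libraries were read in pairs, aligned to mm10 with strand in Strand NGS, and counted per gene. The authors deposited expected counts (estimated counts that need not be whole) for 15388 genes, keeping genes with no fewer than 20 reads in each library of 1 or both fractions, and normalized columns on a log2 scale, made with DESeq and shifted to the median of Input. Genes under that limit and the unbound fraction were not analysed here.

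Rounded counts entered a quasi-likelihood fit (edgeR 4.0.16 in R 4.3.3), without a term for the animal, with median-of-ratios (RLE) scaling. A gene was kept if each library of 1 fraction exceeded 20 scaled reads (15343, with 45 removed, and all 61 chaperone genes kept). Benjamini-Hochberg adjustment ran over these genes, with a threshold of 0.05. SE came from the F statistic, and ratios per animal used a pseudocount of 1. Libraries of 14879734 to 17757918 reads set the counting precision. The script was tested on simulated data. Libraries with the same number came from the same animal, and the deviations of the 3 pairs from the group means correlated at 0.193, 0.0585 and 0.12. TMM and total-count scaling, 2 other filters, halved counts (since both mates of a pair may have been counted), the animal as a block, left-out libraries, DESeq2 1.42.0 and limma 3.58.1 on the deposited log2 values were tried.

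The members were taken by a rule on symbols that used no values. That rule, the classes and the lists were written with earlier results of these data known, and no list was tested. Heat shock protein genes were all named. Of the DnaJ genes, the rule named the 8 highest and 8 lowest among those called, the one with the most reads in each class, and any whose call an alternative ended; the others were added so that every member is accounted for. Of each partner list up to 3 called genes by size of change and the one with the most reads were named. Exon lengths came from GENCODE M21 (all members matched) and promoters from RefSeq on GRCm38.p6, of which 67 entries matched 50 members. Motifs were searched in 250 bases before each start. Sequence identity was computed on the longest reading frames of annotated transcripts.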

Additional observations from a re-analysis of the deposited data

How the results depend on the processing

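Of the 31 members called, 17 kept the call under all 14 alternatives, 14 higher and 3 lower. Hspb3 kept it under the 13 in which it was tested, as the filter of 100 scaled reads removed it. In addition, 5 members not called passed under at least 1. The replicate block, with the animal as a term, ended the call of Hsp90ab1 (adjusted p = 0.061) and added Dnajb5, Dnajb14 and Dnajc5, giving 26 higher and 7 lower, and changed no other call of a member. Total-count scaling changed the most: it gave 17 members higher and 8 lower. With it the median log2 fold change was 0.10 over all members, 0.19 for cytosolic Hsp70, 0.093 for Hsp110 and Hsp70-related genes, 0.23 for ER chaperones, -0.0056 for mitochondrial chaperones, 0.14 for vesicle J proteins, 0.033 for J proteins of RNA, ribosome and chromatin and -0.032 for other type C J proteins, and among the partners 0.034 for those of Hsp70, 0.019 for Hsp90 co-chaperones, 0.038 for TRiC and prefoldin, 0.43 for ER folding and 0.06 for mitochondrial Hsp90 and proteases. The median of all genes went from -0.01 to -0.09. The same scaling turned the sign of 8 members that were not called, Hspa4l (-0.0090), Dnajc1 (-0.037), Dnajc10 (-0.021), Dnajc11 (-0.034), Dnajc19 (-0.0056), Dnajc14 (-0.069), Dnajc16 (-0.060) and Dnajc4 (-0.0043), and limma on the deposited log2 values turned Dnajc14 (-0.0087) and Dnajc16 (-0.0017). Keeping genes above 100 scaled reads left 2 small heat shock protein genes, with a median of -0.65. With limma on the deposited values, 24 members were called, 19 higher and 5 lower. Leaving out 1 library at a time gave 18 to 26 members higher and 3 to 7 lower, the 3 without Input 201 or Input 207. Medians then ran from 0.15 to 0.21 over all members, 0.15 to 0.22 for Hsp110 and Hsp70-related genes, 0.064 to 0.16 for J proteins of RNA, ribosome and chromatin, 0.040 to 0.18 for mitochondrial chaperones, 0.013 to 0.075 for other type C J proteins and 0.054 to 0.17 for partners of Hsp70. Signs turned in members not called: Dnajc17 (-0.19 to 0.034), Dnajc24 (-0.18 to 0.040), Dnajc1 (-0.067 to 0.10), Dnajc19 (-0.072 to 0.18), Dnajc14 (-0.011 to 0.024), Dnajc16 (-0.057 to 0.071), Dnajc25 (-0.018 to 0.26), Dnajc4 (-0.045 to 0.16) and Hspb6 (-0.41 to 0.0030). TMM scaling, the filters, halved counts and DESeq2 gave 25 to 27 members higher and 4 to 6 lower. Why these settings differed was not tested. The smallest log2 fold change called among the members was 0.21 (Hspd1), and genes with few reads such as Hspb3 and Hspb6 are the least precise.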
